A study of Homo sapiens with 15 samples.

Results

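The comparison described here sets K562 nuclei digested with 1 U of nuclease P1 against K562 nuclei that received no P1. Its members are the 3 samples labelled with 1 U and the 3 labelled as undigested, 6 of the 15 samples of the series. K562 is an established human chronic myeloid leukemia line, labelled here as wild type. In both groups the cells were fixed with formaldehyde, their nuclei were pelleted at low speed along with mitochondria and unbroken cells, and the pellet was opened with detergent. The 1 U group was then incubated with the enzyme, which was afterwards inactivated by heat. The labels do not state whether the undigested group went through the same incubation without enzyme, so the enzyme and the incubation cannot be told apart here. The measurement was SSiNGLe-P1, in which free 3′-OH ends of DNA are tailed with A, copied from the tail and sequenced, and each read pair places 1 terminus at a position and strand. The 3 samples of a group are biological replicates of 1 cell line, so the spread between them does not cover differences between cell lines.

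P1 is an endonuclease that cuts single-stranded DNA and leaves 3′-OH ends. Such ends also exist without it, at nicks, at lagging-strand fragments and at the ends of nascent strands. Under the strand-displacement model of how mitochondrial DNA replicates, synthesis of the new heavy (H) strand displaces the parental H strand, which stays single-stranded until a new light (L) strand is copied from it. Many rounds of H-strand synthesis stop early, at the termination-associated sequences of the non-coding region (NCR), and leave 7S DNA, a short H strand that holds the D-loop open.

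The untreated replicates 1 to 3 held 4253274, 2411930 and 2497353 nuclear termini, and the 1 U replicates 2745500, 2258825 and 2366806. The mitochondrial termini numbered 112179, 468797 and 486276 in the untreated samples and 359157, 359949 and 298951 at 1 U. Untreated replicate 1 stood apart, with the fewest mitochondrial and the most nuclear termini of the 6. Most of the occupied nuclear positions, between 91.8% and 92.6% per sample, carried a single terminus. The density of termini in CDKN2A, CDKN2B and MTAP, which K562 lacks, was between 0 and 0.162 times that of the whole genome. In BCR, ABL1 and NUP214, which K562 carries in extra copies, it was between 7.64 and 12.7 times that of the genome, so both marks of the line were present in all 6 samples. The reads carry no molecular identifier, so a count of termini does not equal a count of molecules, and an exact permutation test of 3 against 3 samples cannot give a p below 0.1.

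At 1 U a larger part of the mitochondrial termini was H-strand termini outside the NCR, and inside the NCR H-strand termini lay at more positions. With every sample thinned to 112179 mitochondrial termini (mean of 20 draws), H-strand termini lay at 6550, 6044 and 5901 positions of the whole genome in the untreated samples and at 10283, 10143 and 9905 positions at 1 U, and the groups did not overlap (exact two-sided permutation p = 0.1). On the L strand the untreated samples had 6490, 6225 and 5771 occupied positions and the 1 U samples 6186, 5371 and 4558, and the groups overlapped (exact permutation p = 0.2). This thinning equalised only the total. H-strand termini outside the NCR made up 16.3%, 15.04% and 14.7% of the mitochondrial termini without P1 and 45.7%, 47.8% and 50.1% at 1 U, so the positions outside the NCR were compared at about 3.13 times as many H-strand termini.

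With the H-strand termini outside the NCR thinned to 18237 in each sample, they lay at 6013, 5705.9 and 5638.4 positions without P1 and at 6079.9, 5902.15 and 5644.5 at 1 U, and the groups overlapped (exact permutation p = 0.6). In the NCR, with 73391 H-strand termini drawn from each sample, the occupied positions were 537, 518.4 and 525.7 of 1125 without P1 and 967.3, 978.55 and 982.5 at 1 U, without overlap (exact permutation p = 0.1). The 10 highest positions of each sample held 93.0%, 92.3% and 92.1% of these termini without P1 and 62.1%, 58.7% and 52.4% at 1 U. The draw included them, so it left fewer termini for the other positions without P1 and did not equalise the depth there. The same thinning within a strand and region was run in the regions outside the NCR. Q1 runs from MT-ND4L to the end of the tRNA genes before the NCR, Q2 from MT-ND2 to MT-ND4L, and Q3 from the end of MT-RNR2 to MT-ND2, while Q4 holds MT-RNR1 and most of MT-RNR2, the genes of the ribosomal RNAs. In each of the 4 the groups overlapped on both strands. On the H strand of Q1 the 1 U samples had 1.074, 1.070 and 1.067 times the positions of the untreated sample of the same number (exact permutation p = 0.2). In Q2 the ratios were 1.053, 1.070 and 1.038 (exact permutation p = 0.2), and in Q3 and Q4 they lay on both sides of 1. The groups thus differed in how widely the H-strand termini were spread in the NCR, with its 10 highest positions included. Outside the NCR they overlapped at this depth, with small rises within each replicate number in Q1 and Q2.

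The gains and losses were then called position by position with edgeR's quasi-likelihood test, at an adjusted p of 0.05. Of the 33142 positions on both strands, 5207 passed a filter of at least 10 termini in at least 3 samples. A position could pass through the 1 U samples alone, so the shares and medians among those tested are not those of all positions and lean toward gains. Scaled to all mitochondrial termini, 2679 positions rose and 138 fell at 1 U, which is 51.4% and 2.65% of those tested. The total used for scaling matters here, because the NCR held a smaller part of the termini at 1 U. Termini outside the NCR made up 33.3%, 32.6% and 29.9% of the mitochondrial termini in the untreated samples and 61.9%, 59.7% and 59.0% at 1 U. Scaled to termini outside the NCR (the outside total), 1870 positions rose and 1465 fell (35.9% and 28.1%), and the median log2 change of all positions tested was 0.23 in place of 1.14. The part of the called positions that rose was 95.1% on the first scale and 56.1% on the second.

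The strands differed on both scales. On the H strand 2641 of 3507 tested positions rose and 35 fell with all mitochondrial termini as the total (75.3% and 0.998%), and 1851 rose and 261 fell with the outside total. On the L strand 38 of 1700 rose and 103 fell (2.24% and 6.06%) on the first scale, whereas 19 rose and 1204 fell on the second. The outside total holds the termini of both strands, so a larger part on the H strand lowers the L strand on that scale. As a percent of all mitochondrial termini, L-strand termini outside the NCR were 17.0%, 17.6% and 15.3% without P1 and 16.2%, 11.9% and 8.83% at 1 U, and the groups overlapped (exact permutation p = 0.2). The median log2 change with the outside total was 1.24 on the H strand and −1.38 on the L strand. The number of losses on the first scale also rested on the libraries chosen, with 735 positions falling without replicate 1, 19 without replicate 2 and 13 without replicate 3.

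The H-strand termini were also summed over all positions of a region, which needs no filter. With the outside total they were 2.02 times as many at 1 U in Q1, 1.48 times in Q2, 2.05 times in Q3 and 0.616 times in Q4, each without overlap (exact permutation p = 0.1). With all mitochondrial termini as the total the ratio of Q4 was 1.16, with overlap (exact permutation p = 0.3), and those of Q1, Q2 and Q3 were 3.81, 2.79 and 3.86. Among the positions that passed the filter, and again with the outside total, 372 of 517 tested H-strand positions of the NCR rose and 54 fell, 755 of 1272 in Q1 rose and 24 fell, 423 of 1043 in Q2 rose and 67 fell, and 276 of 463 in Q3 rose and 30 fell. In Q4 only 25 of 212 rose and 86 fell. The NCR had a median log2 change of 2.11, Q1 of 1.51, Q2 of 0.82, Q3 of 1.38 and Q4 of −0.79, and with all mitochondrial termini as the total the Q4 median was 0.12. On the L strand Q1 had a median of −1.41, Q2 of −1.42, Q3 of −1.50 and Q4 of −1.36, and 1159 of 1546 tested L-strand positions outside the NCR fell on this scale while 1 rose. L-strand positions of the NCR had a median of −0.77, 18 of 154 higher and 45 lower. None of these differences between regions was tested.

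**Figure D1:**
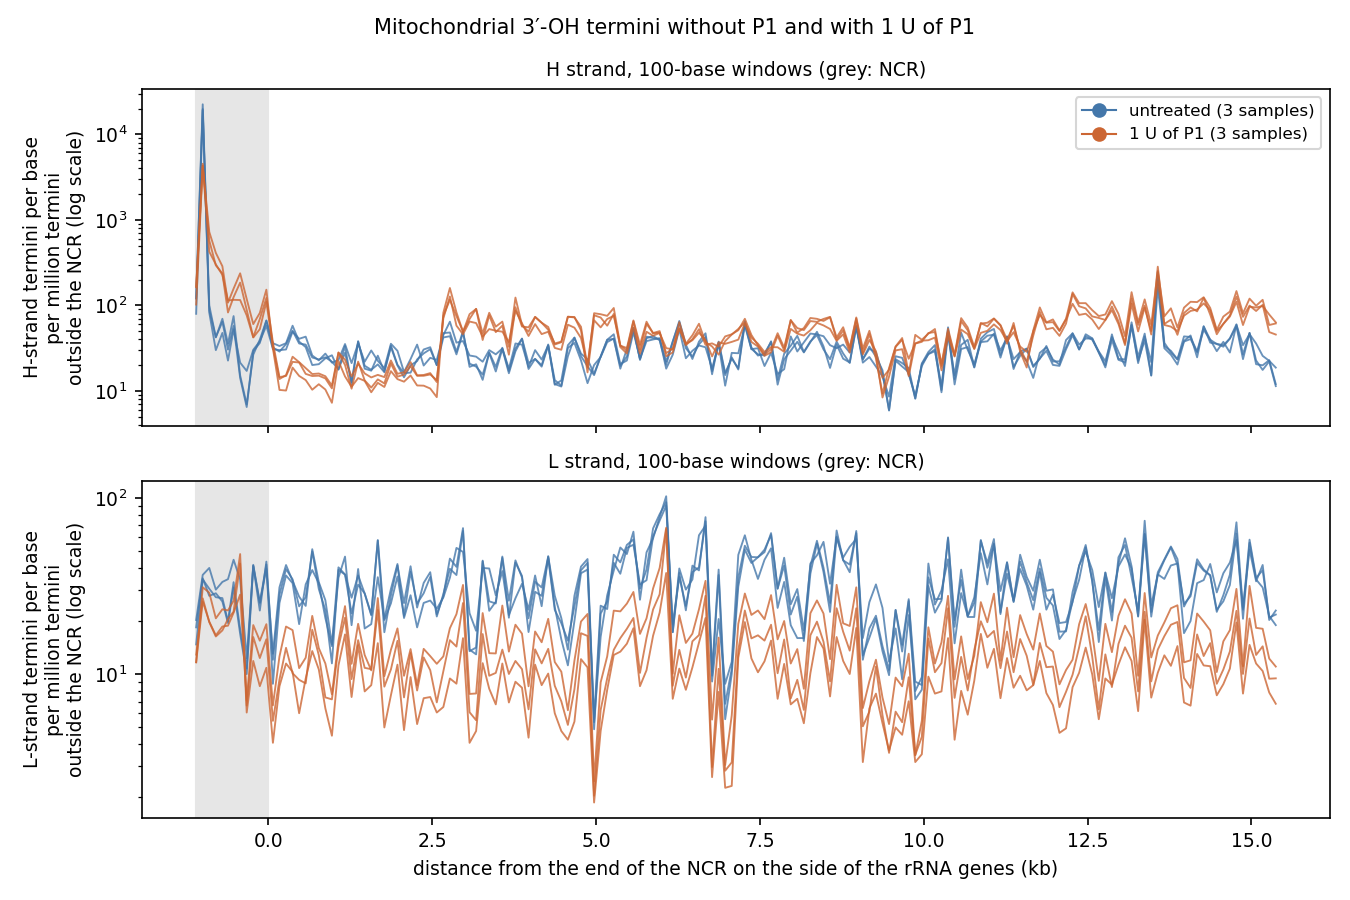
Termini per base on the H strand (top) and the L strand (bottom) in 100-base windows, scaled to 1000000 mitochondrial termini outside the NCR, on a log scale, against the distance from the end of the NCR next to the rRNA genes. Each line is 1 sample, and the 3 lines at 1 U lie above the untreated ones over most of the H strand except in the rRNA genes and at the NCR peak, and below them over most of the L strand.

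The largest losses were all H-strand positions of the cluster where the untreated termini piled up. At position 16107 the untreated samples had 37205, 148029 and 162340 termini and the 1 U samples 40639, 40140 and 30223. Scaled to 1000000 mitochondrial termini of the sample (CPM), these were 331657, 315764 and 333843 CPM without P1 and 113151, 111516 and 101097 CPM at 1 U. The groups lay far apart, and the log2 change was −1.59 ± 0.09 (SE), or −2.51 with the outside total. Its neighbours 16105, 16106, 16108 and 16109 fell by 1.98, 1.82, 1.69 and 1.91 on the log2 scale with all termini as the total, and each of the 5 had lower CPM in all 3 samples at 1 U. These 5 are the largest of 19 H-strand losses with a mean of at least 50 termini. In all 19 the groups did not overlap, but the 19 were picked as called losses.

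The cluster did not move as 1 block. Position 16112, a few bases from the peak, had 9173, 10260 and 12028 CPM without P1 and 8194, 9607 and 9895 at 1 U, so the groups overlapped (log2 change −0.18 ± 0.16, edgeR adjusted p = 0.35). Position 16128 had 4145, 4558 and 5168 CPM without P1 and 7281, 9299 and 9540 at 1 U, a log2 change of 0.91 ± 0.17 that was −0.01 with the outside total. Position 16126 had only 446, 875 and 751 CPM without P1 and 3895, 5401 and 6162 at 1 U, and its log2 change was 2.92 ± 0.22, or 2.00 with the outside total. These 3 positions are among the 20 most occupied NCR positions of the H strand and were chosen after their values were seen. The spread over positions was seen in the shares as well. The 10 highest H-strand positions of each sample held 93.0%, 92.3% and 92.1% of its H-strand NCR termini without P1 and 62.1%, 58.7% and 52.4% at 1 U. The 100 highest held 98.4% in each untreated sample and 83.8%, 82.7% and 80.2% at 1 U.

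The largest gains were H-strand positions of the NCR too, at a distance from that cluster. Position 166 had 0, 1 and 0 termini in the untreated samples and 93, 159 and 161 at 1 U. With a single untreated terminus its fitted log2 change of 8.49 ± 0.65 depends on the prior count of the fit and is no bound. Position 16321 went from 5, 2 and 2 termini to 281, 344 and 423, and position 16288 from 3, 4 and 1 to 324, 281 and 331, with log2 changes of 6.80 ± 0.49 and 6.78 ± 0.47, or 5.88 and 5.88 with the outside total. Position 559 had 0, 1 and 3 termini without P1 and 121, 94 and 174 at 1 U, and position 185 had 1, 1 and 2 without P1 and 69, 121 and 106 at 1 U. These are the 5 largest of 412 H-strand gains with a mean of at least 50 termini, and in all 412 the groups did not overlap. All 5 met the filter's minimum count only in the 1 U samples, so that group alone admitted them and fixed their direction. Their fitted log2 changes are therefore no separate test of that direction.

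On the L strand 1 gain had a mean of at least 50 termini, at position 187 of the NCR. It had 3, 19 and 11 termini without P1, or 26.7, 40.5 and 22.6 CPM, and 52, 124 and 94 at 1 U, or 145, 344 and 314 CPM. The groups did not overlap, and the log2 change was 3.24 ± 0.42, or 2.33 with the outside total. The largest of the 14 L-strand losses of that size were spread over genes. Position 13695 in MT-ND5, a subunit of complex I, had 160, 243 and 197 CPM without P1 and 114, 103 and 56.9 at 1 U (log2 change −1.19 ± 0.37, edgeR adjusted p = 0.0055). Position 1693 in MT-RNR2, 11676 and 12126 in MT-ND4 and 8153 in MT-CO2 followed, with log2 changes between −1.05 and −0.99. At the 2 positions of MT-ND4 the groups overlapped, and of the 14 losses 9 had groups that did not.

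The ratio of H-strand to L-strand termini within a sample does not depend on the total, and it was tested in windows of 100 bases. The ratio rose in 154 of 166 windows and fell in 1 (92.8% and 0.602%), with a median log2 change of 2.14. It rose in all 54 windows of Q1 (median 2.45) and all 54 of Q2 (1.89), in 22 of 23 of Q3 (2.73) and in 11 of 12 of the NCR. In Q4 it rose in 13 of 23 windows, with a median of 0.65. The 11 windows that were not called all lay in MT-RNR1 or MT-RNR2, and their log2 changes were between −0.18 and 0.51.

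The window that fell, from position 16101 to 16200, holds the cluster described above. Its H/L ratio was 523, 572 and 641 without P1 and 166, 145 and 159 at 1 U (log2 change −1.89 ± 0.12), and its H-strand termini made up 63.9%, 64.6% and 67.4% of all mitochondrial termini without P1 and 26.6%, 27.1% and 25.3% at 1 U. The neighbouring window from 16201 to 16300 went the other way on the H strand, from 0.274%, 0.286% and 0.298% of all mitochondrial termini to 2.63%, 3.42% and 4.27%. The window from 16301 to 16400 had 0.100%, 0.139% and 0.126% without P1 and 1.87%, 1.76% and 2.43% at 1 U, and its H/L ratio went from 0.991, 1.56 and 1.46 to 18.1, 14.2 and 25.1 (log2 change 3.80 ± 0.42). The largest rise of the ratio, 4.12 ± 0.41, was in the window from 201 to 300 on the other side of the NCR, where the ratio was 1.39, 0.60 and 0.69 without P1 and 10.8, 13.3 and 19.6 at 1 U.

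Outside the NCR the largest rises were in MT-CYB, the cytochrome b gene of complex III, and in stretches of tRNA genes. In the MT-CYB window from 15701 to 15800 the ratio was 0.615, 0.451 and 0.640 without P1 and 5.43, 7.03 and 11.1 at 1 U (log2 change 3.74 ± 0.42). The window from 10401 to 10500, with MT-TR and the start of MT-ND4L, had ratios of 1.10, 0.899 and 1.12 without P1 and 10.4, 10.3 and 14.2 at 1 U (3.48 ± 0.31). The window from 5501 to 5600, with the end of MT-ND2 and the genes of 2 tRNAs, MT-TW and MT-TA, had 3.75, 2.75 and 3.25 without P1 and 31.0, 32.8 and 43.3 at 1 U (3.47 ± 0.39). The smallest called rises were all in the rRNA genes, from 0.56 to 0.65, in the windows that start at 1201 and 1401 of MT-RNR1 and at 2401 and 3101 of MT-RNR2.

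Counted by gene, the H/L ratio rose in 36 of the 37 mitochondrial genes and fell in none (97.3% and 0%). Gene positions came from a mitochondrial reference that is 2 bases shorter than the genome of the files, so 10 bases at each end of a gene were left out. The rise was large in the 22 tRNA genes, with a median log2 change of 2.93 and a range from 1.15 to 3.88. MT-TT, the threonine tRNA gene, had ratios of 0.371, 0.300 and 0.295 without P1 and 5.34, 2.67 and 7.17 at 1 U (log2 change 3.88 ± 0.46). MT-TQ, the glutamine tRNA gene, had 1.05, 0.415 and 0.434 without P1 and 4.36, 8.81 and 13.0 at 1 U (3.83 ± 0.43). The 13 protein-coding genes all rose, by a median of 2.11 and a range from 1.57 to 2.62. The 7 complex I subunits had a median of 2.43, MT-CYB 2.62, the 2 ATP synthase subunits 2.15 and the 3 complex IV subunits 1.78. MT-CO1, the catalytic subunit of complex IV, had the smallest rise of the 13, from 0.669, 0.727 and 0.778 to 1.58, 2.20 and 2.87. MT-ATP8 and MT-ATP6 share positions, so these 2 are not separate measurements.

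**Figure D2:**
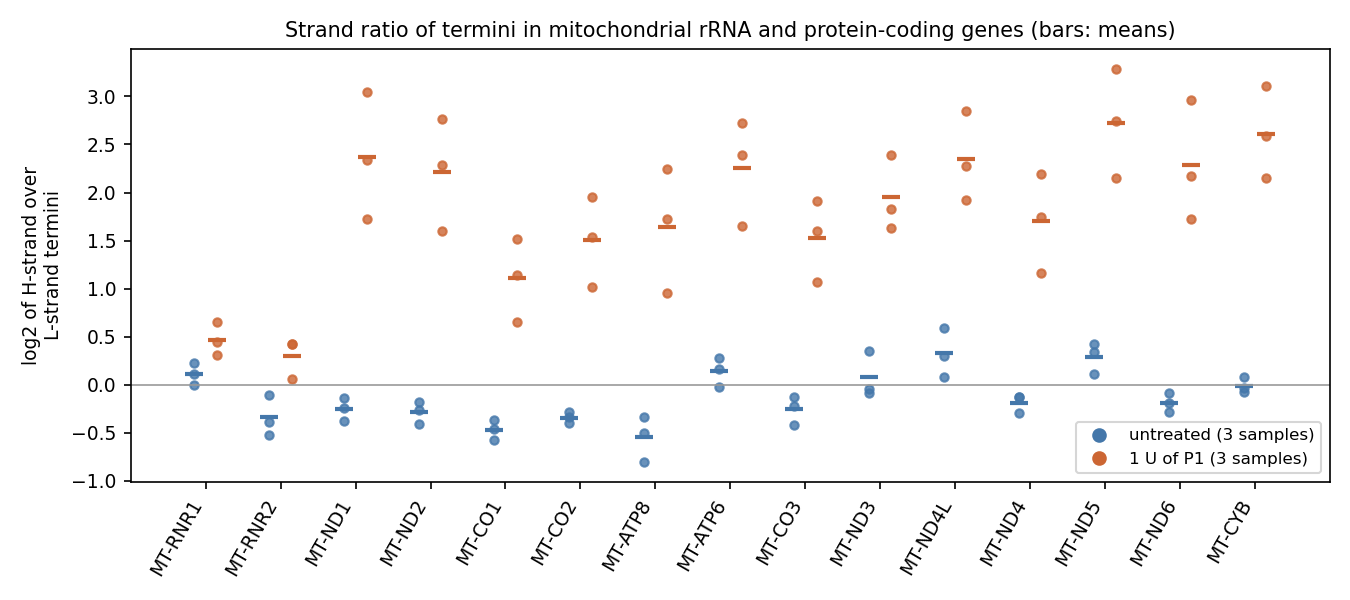
The log2 ratio of H-strand to L-strand termini in each mitochondrial rRNA and protein-coding gene, in genome order, with a point for each of the 3 samples per group and a bar for their mean. The 1 U points lie above the untreated ones in each gene, by the least in MT-RNR1 and MT-RNR2 and by the most in MT-ND1, MT-ND2, MT-ND5, MT-ND6 and MT-CYB.

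Taken 1 strand at a time, the genes depended on the total. Scaled to all mitochondrial termini, H-strand termini rose in 35 of the 37 genes and fell in none (94.6% and 0%), and L-strand termini rose in none and fell in 1 (0% and 2.70%), MT-TI, the isoleucine tRNA gene (log2 change −0.98, edgeR adjusted p = 0.0073). On this scale all 13 protein-coding genes rose on the H strand (median 1.65), as did all 22 tRNA genes (median 2.39), and the L-strand changes lay between −0.98 and −0.11. The 2 genes that were not called on the H strand were the rRNA genes, with log2 changes of −0.14 ± 0.11 in MT-RNR1 (edgeR adjusted p = 0.25) and 0.20 ± 0.10 in MT-RNR2 (edgeR adjusted p = 0.097).

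With the outside total, which a larger part on the H strand shifts against the L strand, H-strand termini rose in 33 genes and fell in 2 (89.2% and 5.41%), and L-strand termini fell in all 37 (100% of those tested, with 0% higher). The 2 that fell on the H strand on this scale were again the rRNA genes, at −1.06 ± 0.12 and −0.71 ± 0.11, so the direction of MT-RNR2 turned with the total. The ratio within a sample does not depend on it. In MT-RNR1 the H/L ratio was 1.17, 0.999 and 1.08 without P1 and 1.24, 1.57 and 1.36 at 1 U, a log2 change of 0.36 ± 0.31 (edgeR adjusted p = 0.24). In MT-RNR2 it was 0.932, 0.698 and 0.763 without P1 and 1.04, 1.34 and 1.34 at 1 U, a log2 change of 0.64 ± 0.32 (edgeR adjusted p = 0.046).

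The bases around the cut were read at nuclear termini, where the genome of the files' build, GRCh37/hg19, was at hand. Offset 1 is the first base after the 3′ end on the terminus strand and offset −1 the last base before it. Without P1 an A followed the cut at 36.8%, 36.3% and 36.4% of termini, and at 1 U at 40.5%, 41.8% and 42.1%. C followed at 24.1%, 23.96% and 24.98% without P1 and at 20.2%, 19.1% and 19.3% at 1 U, and neither base overlapped between the groups (exact two-sided permutation p = 0.1 for each). A or T followed the cut at 57.5%, 56.1% and 55.5% of untreated termini and at 61.9%, 63.6% and 63.4% of those at 1 U, in a genome with 59.1% A and T.

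The largest differences lay after the cut. A and T together differed by 6.63 percentage points at offset 1, 5.47 at offset 2, 4.09 at offset 3, 2.54 at offset 4 and 1.08 at offset 6, with no overlap at any of these. At the 2 bases before the cut the untreated samples already favoured C and G. C stood at offset −1 in 47.6%, 45.4% and 46.1% of untreated termini and in 45.5%, 45.3% and 45.2% at 1 U, and G at offset −2 in 46.0%, 43.0% and 43.9% without P1 and in 43.8%, 43.4% and 45.0% at 1 U, with overlap in both. Further before the cut, at offsets −3 to −5, the difference was 1.33 to 1.73 points for T and −1.48 to −1.37 points for G, without overlap.

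The pair of bases that flanks the cut shows the same shift. T before and A after the cut (T|A) made up 2.08%, 2.51% and 2.34% of untreated termini and 2.93%, 3.08% and 2.94% at 1 U, 1.30 times as many. G|A went from 9.03%, 8.59% and 8.49% to 10.4%, 10.9% and 11.2% (1.25 times), and A|T from 2.50%, 2.81% and 2.68% to 3.20%, 3.33% and 3.11% (1.21 times). C|G was lower, with 3.24%, 3.39% and 3.36% without P1 and 2.59%, 2.43% and 2.41% at 1 U (0.74 times), as were C|C (0.79 times) and G|C (0.81 times). All 6 pairs had groups that did not overlap, which held for most pairs. The groups also lay apart in A|C, C|A, G|G, G|T and T|C, and they overlapped in A|A, A|G, C|T, T|G and T|T.

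The A tail added to the ends may bear on these values, and its part in them was not tested. An A at the 3′ end can be read as part of the tail and trimmed with it, which would move the recorded cut toward the 5′ end and put an A after it. A stood at offset −1 in 10.6%, 12.3% and 11.98% of untreated termini and in 12.1%, 12.2% and 11.8% at 1 U. Among termini with a base other than A after the cut, the groups lay apart in T and in C. T followed at 32.7%, 31.0% and 29.97% without P1 and at 36.0%, 37.4% and 36.9% at 1 U, and C at 38.1%, 37.6% and 39.3% without P1 and at 33.9%, 32.8% and 33.4% at 1 U. In that subset A|T was 1.31 times as frequent at 1 U and C|C 0.86 times. The GC content of the sequence around a terminus, 50 bases on either side, was 47.8%, 47.2% and 47.2% without P1 and 46.9%, 47.1% and 47.0% at 1 U, without overlap, and its part in the shift was not tested.

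**Figure D3:**
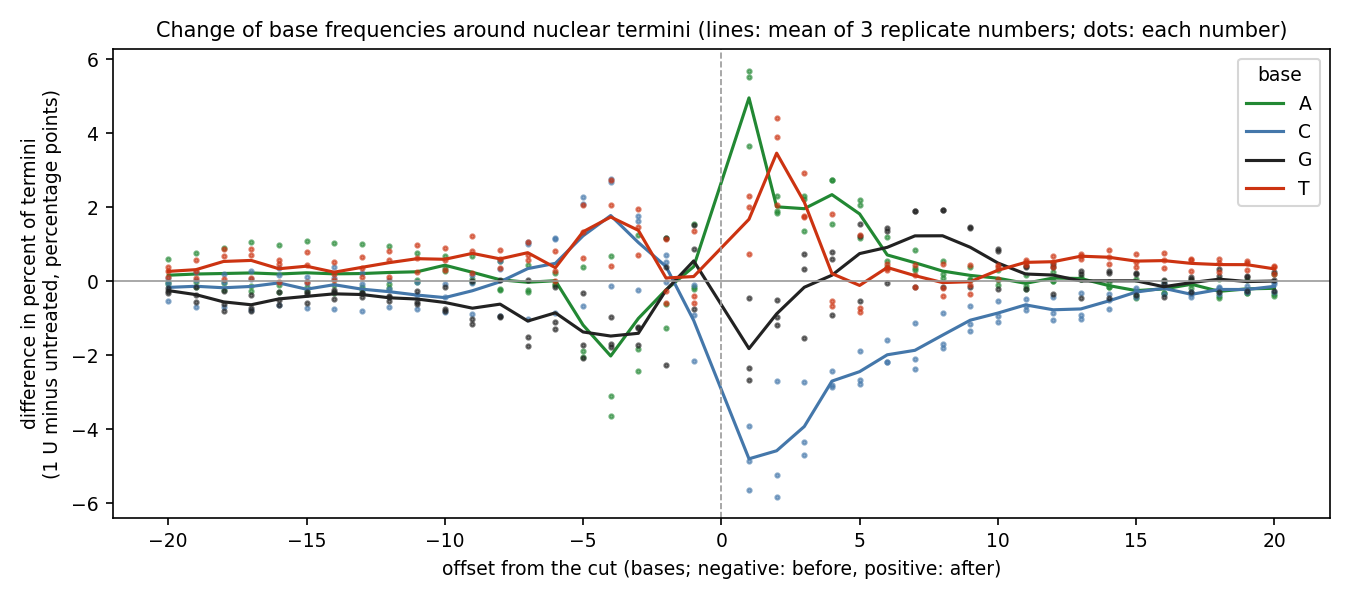
Difference in the percent of each base between 1 U and untreated samples, in percentage points, at each offset from the cut of nuclear termini. Dots are the differences of the 3 replicate numbers and lines their means, with A and T above 0 and C below 0 in the first bases after the cut, fading over the next bases.

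In the nuclear genome the densities of termini differed by gene feature, and the features around the starts of genes were lower at 1 U. In the 1 kb on either side of the starts of protein-coding genes the untreated samples had 683, 699 and 710 CPM per Mb, scaled to the nuclear termini of the sample, and the 1 U samples 620, 651 and 639, which is 0.913 times, with no overlap (exact permutation p = 0.1). In the narrower stretch from 250 bases before to 50 after the start, the values were 760, 824 and 833 without P1 and 650, 642 and 601 at 1 U, 0.783 times. In 5′ UTRs they were 690, 689 and 687 without P1 and 580, 622 and 597 at 1 U, 0.871 times. Coding exons had 706, 658 and 645 without P1 and 613, 647 and 656 at 1 U, and the groups overlapped (exact permutation p = 0.4). Introns, 3′ UTRs, the 1 kb on either side of gene ends, noncoding exons and intergenic sequence also overlapped, at 1.003, 0.985, 0.984, 0.971 and 1.003 times the untreated density.

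The strands of a gene were taken relative to transcription, the template strand being the one that RNA polymerase reads. In 5′ UTRs the ratio of template to non-template termini was 1.12, 1.18 and 1.18 without P1 and 1.12, 1.08 and 1.07 at 1 U (0.939 times), and the groups did not overlap, although replicate 1 was close in both, at 1.123 and 1.118. In the narrow promoter it was 0.953, 0.961 and 0.959 without P1 and 0.982, 0.993 and 1.005 at 1 U, a change of 1.04 times without overlap, whereas in the wide promoter it was 0.998, 1.006 and 1.010 without P1 and 0.995, 0.999 and 0.974 at 1 U, with overlap. Coding exons (0.968 times), introns (0.981 times) and 3′ UTRs (0.987 times) overlapped in their strand ratios.

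The GC content of the sequence moved with the density. The 100 kb bins were ordered by GC content and split into deciles. In the lowest, from 31.3% to 35.5% GC, the density was 159, 154 and 153 CPM per Mb without P1 and 169, 160 and 163 at 1 U, 1.05 times with no overlap. In deciles 8 and 9, between 42.7% and 48.1% GC, it was 0.979 and 0.978 times the untreated density, again with no overlap. In the highest decile it was 718, 695 and 698 without P1 and 668, 705 and 698 at 1 U, and the groups overlapped. The part of GC content in the promoter values was not tested.

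**Figure D4:**
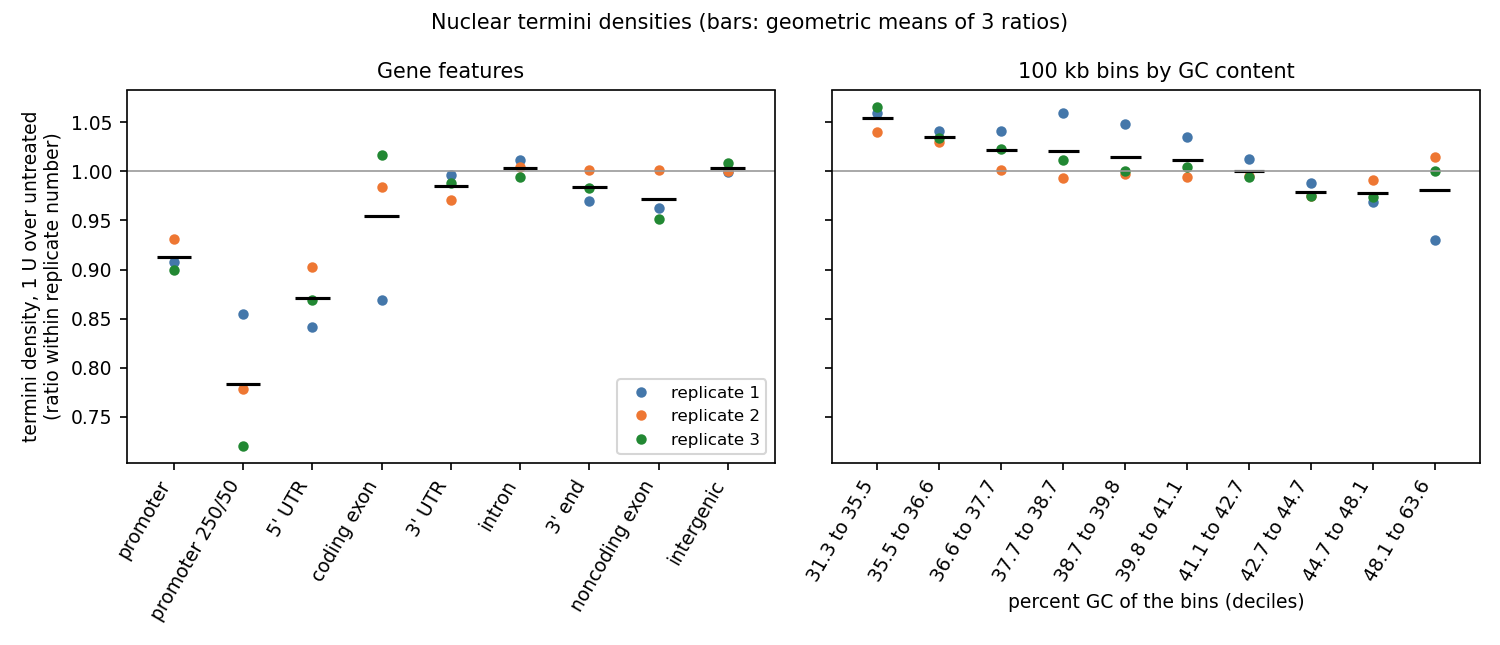
Density of nuclear termini at 1 U divided by that of the untreated replicate with the same number, for gene features (left) and for deciles of 100 kb bins ordered by GC content (right). Points are the 3 replicate numbers, bars their geometric means, and the narrow promoter (250 bases before to 50 after the start), the wide promoter and the 5′ UTR are the features whose 3 points lie furthest below 1.

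Few single nuclear genes differed. Of 16301 protein-coding genes tested with edgeR, termini rose in 5 and fell in 1 (0.0307% and 0.00613%), while 846 (5.19%) had an unadjusted p under 0.05, and the median log2 change was −0.0007. DESeq2 called none, with 19 genes at an unadjusted p under 0.05, and on unique positions at equal depth edgeR called none. The median SE of the log2 change was 0.34 in DESeq2, from its model, and 0.20 in edgeR, from the F statistic. These SEs are computed differently. PCBD2, which codes for a pterin-4a-carbinolamine dehydratase, had 219, 185 and 178 termini without P1 and 302, 237 and 271 at 1 U (log2 change 0.76 ± 0.10). It holds 2676 bases that match the mitochondrial reference, and without those bases the change was 0.40 (edgeR adjusted p = 0.65). MAGEB10, of a family of testis antigens, had 15, 13 and 5 termini without P1 and 16, 59 and 17 at 1 U (1.66 ± 0.33), and without replicate 2, whose 1 U sample holds the high value, the change was 1.15 (edgeR adjusted p = 0.999).

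The other called genes were small or uneven changes. These calls rest on the replicate number as a block, which did not pair the samples for genes, and without it PCBD2 alone was called, while the edgeR adjusted p was 0.30 for MAGEB10, 0.65 for PCNX1 and 0.99 for IMPG1, PPAT and ENSG00000285253. PCNX1, a membrane protein gene, had 204, 182 and 166 termini without P1 and 211, 220 and 200 at 1 U (0.47 ± 0.10), and it was not called whichever replicate was left out. IMPG1, a gene of the retinal matrix, and PPAT, of purine synthesis, had log2 changes of 0.32 and 0.26 that turned to −0.09 and −0.18 without replicate 1. ENSG00000285253, on chromosome 15, had 346, 187 and 645 termini without P1 and 242, 184 and 182 at 1 U, a log2 change of −0.59 that was 0.09 without replicate 3. No gene of the lists that were looked at as groups was called in either direction. The lists were DNA replication genes (35 of 37 tested, median log2 change 0.04), erythroid genes (15 of 20, 0.02), very long genes at fragile sites (17 of 17, 0.04), genes of mitochondrial DNA maintenance (12 of 12, 0.07), cytosolic ribosomal proteins (54 of 85, −0.06), replication-dependent histones (10 of 63, −0.20) and olfactory receptors (51 of 399, 0.01). PRIM2, a primase subunit, had 147, 158 and 157 CPM without P1 and 154, 154 and 156 at 1 U. The fetal globin gene HBG2 had 72.7, 72.6 and 78.1 CPM without P1 and 85.7, 84.2 and 80.8 at 1 U (log2 change 0.17 ± 0.10, edgeR adjusted p = 0.97), and the fragile-site gene CNTNAP2 had 834, 770 and 747 without P1 and 833, 787 and 807 at 1 U. Without replicates 1, 2 and 3 in turn 2, 7 and 7 genes rose and 7, 1 and 0 fell.

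A single gene was called for its strand ratio, again PCBD2 (0.00613% of those tested lower, 0% higher). On its template strand it had 103, 98 and 92 termini without P1 and 98, 62 and 74 at 1 U, and on its non-template strand 116, 87 and 86 without P1 and 204, 175 and 197 at 1 U (log2 change of template over non-template −1.33 ± 0.18). It was the only call at 0.05, and without replicates 1, 2 and 3 in turn 2, 0 and 0 genes were called lower. The termini in its mitochondrial-like bases on the non-template strand numbered 10, 24 and 29 without P1 and 96, 87 and 118 at 1 U. The rest of that strand had 106, 63 and 57 without P1 and 108, 88 and 79 at 1 U.

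Single nuclear positions were tested where at least 3 samples had 10 or more termini, which left 776. Of these 4 rose and 1 fell (0.515% and 0.129%), and 3 of the 4 gains were the only 3 tested positions inside sequence that matches the mitochondrial reference. All 4 gains had 10 or more termini only in the 1 U samples. The filter thus admitted them through that group alone, and their direction was fixed by it. The 30 bases around each are shown because the cut and its sequence carry the result, in GRCh37/hg19 and 5′ to 3′ on the terminus strand, with the last base before and the first base after the cut in capitals.
chr17:22020679-22020708, minus strand: aaggggaacgtgtgGTtggtcttgacttta
chr5:134260268-134260297, plus strand: agtagtagttactgGTtgaacattgtttgt
chr5:134260286-134260315, plus strand: aacattgtttgttgGTgtgtatattgtact
chr6:10179750-10179779, minus strand: tcccaaagtgctggCAaattttttagccct
chr1:121485031-121485060, plus strand: tctgacatcttgtgGCcttcgttggaaacg

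The first 3 are the mitochondrial-like gains, and all are cut between G and T. At the chromosome 17 position, which lies in no gene of the annotation, the untreated samples had 1, 5 and 5 termini and the 1 U samples 144, 111 and 125 (log2 change 5.32 ± 0.63). The 2 chromosome 5 positions lie in an intron of PCBD2 and in the pseudogene MTND6P4, a nuclear copy of MT-ND6. The first had 0, 0 and 1 termini without P1 and 12, 14 and 11 at 1 U, and the second 0, 2 and 0 without P1 and 14, 16 and 28 at 1 U. The chromosome 6 position, which has no match to the mitochondrial reference and lies in no annotated gene, had 7, 3 and 2 termini without P1 and 25, 29 and 30 at 1 U (3.11 ± 0.58). The position that fell, on chromosome 1 next to the centromere gap, had 44, 17 and 10 termini without P1 and 4, 5 and 2 at 1 U (log2 change −2.23 ± 0.59, edgeR adjusted p = 0.029). It was not called without the replicate block (edgeR adjusted p = 0.19), with a weaker filter (edgeR adjusted p = 0.14) or by DESeq2 (DESeq2 adjusted p = 0.83). With TMM factors it stayed called (edgeR adjusted p = 0.027). Without replicates 1, 2 and 3 in turn 16, 3 and 1 positions rose and 100, 0 and 0 fell.

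Nuclear sequence that matches the mitochondrial reference over 25 bases or more came to 32.6 kb, and it was split by the mitochondrial strand it resembles. On the strand that is like the H strand the untreated samples had 59, 131 and 166 termini, or 14.0, 54.6 and 66.8 CPM of the nuclear termini, and the 1 U samples 476, 443 and 471, or 174, 197 and 200.2 CPM. These groups lay apart (exact permutation p = 0.1). On the L-like strand there were 11.4, 72.1 and 56.0 CPM without P1 and 38.5, 36.1 and 24.7 at 1 U, with overlap (exact permutation p = 0.5). Untreated replicate 1, lowest on both strands, also had the fewest mitochondrial termini, 112179 beside 468797 and 486276 in the other untreated samples. The part of the mitochondrial depth in these values was not tested.

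In bins of 100 kb 7 of 28197 rose and 8 fell (0.0248% and 0.0284%). Most of these calls ended under other settings, since DESeq2 called 1 bin higher and 0 lower, with 51 bins at an unadjusted p under 0.05, and unique positions at equal depth left 2 higher and 1 lower. The largest gain, chr17:22000001-22100000 with MTRNR2L1, a gene copied from MT-RNR2, had 89, 72 and 73 termini without P1 and 275, 222 and 243 at 1 U (log2 change 1.94 ± 0.12). Its mitochondrial-like bases had 5, 16 and 22 of these termini without P1 and 200, 150 and 177 at 1 U, and without them the change was 0.45 (edgeR adjusted p = 0.79). Of the 7 gains 3 hold mitochondrial-like bases, beside 0.649% of the bins tested. Another 2 rested on a single library: chr2:33100001-33200000 in LTBP1 had 190, 112 and 140 termini without P1 and 194, 1715 and 101 at 1 U, and chr6:72100001-72200000 had 82, 40 and 51 without P1 and 63, 47 and 357 at 1 U.

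The losses were of another kind. Of the 8 bins that fell, 7 lay within 3 Mb of the longest gap of their chromosome, where the assembly leaves out the centromere, beside 4.22% of the bins tested. The bin chr1:121400001-121500000 had 13659, 9033 and 9109 termini without P1 and 7213, 5399 and 5452 at 1 U (log2 change −0.54 ± 0.10), and chr7:61900001-62000000 had 5217, 3232 and 3297 without P1 and 2805, 2169 and 2132 at 1 U (−0.44 ± 0.10). Scaled to depth, the groups did not overlap in any of these 7 bins, which were picked because they were called. In chr16:33200001-33300000 and chr2:90400001-90500000 the high count lay in untreated replicate 1, with 437, 112 and 103 and 418, 146 and 140 untreated termini. Without replicate 1 their log2 changes were −0.22 (edgeR adjusted p = 0.90) and −0.28 (edgeR adjusted p = 0.82), and the rest of the 7 were still called. None of that rest was called without replicate 2 or without replicate 3. Their edgeR adjusted p was then between 0.46 and 0.9997, and their log2 changes lay between −0.50 and −0.37. DESeq2 and unique positions at equal depth called none of them either. The eighth, chr15:57100001-57200000, lies in ENSG00000285253 and had 522 termini in untreated replicate 3, of which 370 lay at 1 position, and its log2 change of −1.17 was 0.10 without replicate 3. Without replicates 1, 2 and 3 in turn 22, 3 and 1 bins fell and 4, 8 and 6 rose.

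The deposited lists of regions for 1 U held 6087, 10545 and 9800 regions on chromosomes 1 to 22 and X for replicates 1 to 3, with median widths of 40, 30 and 30 bases. They were called on sites of the treated sample over those of its own control, so the replicates that a list did not use give a separate reading. In another of the 3 lists lay 5.17%, 3.29% and 2.72% of the regions. In the regions of the first list the unique sites of the other 2 replicates, scaled to their total, were 1.06 and 0.928 times as many at 1 U as without P1, in those of the second 1.24 and 1.01 times and in those of the third 1.06 and 1.13 times. Merged regions found in all 3 lists numbered 31, with a median width of 140 bases, and none held mitochondrial-like bases. The widest, chr22:23407061-23407580 in RSPH14, had 33, 32 and 26 termini without P1 and 31, 35 and 26 at 1 U. The next, chr1:142536601-142536970 in no annotated gene, had 13, 12 and 4 without P1 and 28, 20 and 14 at 1 U. The samples counted here also chose the regions found in all 3 lists, so these counts are not a separate reading.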

How the data were processed

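Groups and replicate numbers came from the deposited labels, and the genome build, BWA 0.7.12 and SICER 1.1 from the submitters' processing notes. The authors kept read pairs with the expected tails, aligned them separately to the mitochondrial sequence and to all of hg19, removed nuclear termini with T-rich upstream sequence, and deposited the count of termini per position and strand. The deposited RPM values, and the p-value and fold ratio columns of the SICER region lists, were not used; of the lists only coordinates were. The deposited strand is that of read 2, so a terminus lies on the opposite strand. On this reading no site of the 6 samples had over 8 A in the 20 bases after the cut, which is what the authors' filter leaves. The mitochondrial genome of the files is 2 bases longer than the reference used here, so no mitochondrial base context was read.

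Counts were fitted with edgeR 4.0.16 in R 4.3.3, with the replicate number as a block, since the authors ran their own paired comparisons by that number, and with Benjamini-Hochberg adjustment over all features tested (at least 10 termini in at least 3 samples, called at 0.05). Strand ratios were fitted with each sample as a block. The SE of an edgeR log2 change is its absolute value over the square root of its F statistic. Nuclear genes and bins used TMM factors. Gene models were GENCODE 44 mapped to GRCh37. Regions and shares were compared with exact two-sided permutation tests, and their ratios are geometric means within replicate numbers. CPM values use the total of the sample, and unique positions were thinned to 2245773 nuclear termini. The alternatives were DESeq2 1.42.0 with its own scaling factors, other totals, filters and windows, unique positions and thinning. Fits with and without the block and omission of each replicate were alternatives too. Termini with no A after the cut, the omission of mitochondrial-like bases, the alternatives for mitochondrial genes and the thinning within a strand and region were added after the data were seen. Scripts were tested on simulated counts: for mitochondrial positions 18.0% of 2-fold and 87.0% of 4-fold changes were recovered, for nuclear genes 72.0% and 96.0%, and for nuclear positions 12.2% and 76.0%. The comparison, its members and the gene lists were chosen with earlier results of these data known. Named positions are up to 5 gains and 5 losses per strand with a mean of at least 50 termini, named windows the 5 largest and 5 smallest called changes, and named genes, bins and nuclear positions up to 10 per direction, by log2 change.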

Additional observations from a re-analysis of the deposited data

How the results depend on the processing

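Of 934 values recomputed under an alternative, 712 kept their direction and their side of the threshold or stayed within the spread, 111 kept their direction and lost the call, 102 moved and 9 changed direction. For mitochondrial positions, DESeq2 gave 1399 higher and 808 lower (H strand 1391 and 134, L strand 8 and 674). It used its own scaling factors in place of the mitochondrial total, so the scale and the test changed together. TMM factors gave 1562 lower (H 280 lower, L 17 higher and 1282 lower), and the outside total 1465 lower (H 261 lower, L 19 higher and 1204 lower). Thinning to equal depth gave 1216 higher and 49 lower (H 1207 higher, L 9 higher and 23 lower), and the weaker filter 87 lower (L 63). Without 1 replicate the counts were 1927 to 2835 higher and 13 to 735 lower, on the H strand 1913 to 2774 higher and 11 to 124 lower, and on the L strand 14 to 61 higher and 2 to 611 lower. The 200-base windows gave 78 higher of 83 windows. Without 1 replicate 133 to 157 windows and 34 to 36 mitochondrial genes were higher, and 1 window and 0 genes lower. By strand, 2 genes were lower on the H strand and 37 on the L strand with the outside total, and 0 and 1 with all mitochondrial termini as the total.

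The replicate number did not pair the samples of mitochondrial positions (correlation of deviations −0.249, 0.001 and −0.136 for the 3 numbers), nuclear genes (0.007, −0.008 and −0.025) or bins (0.067, 0.025 and 0.015), and was over 0.1 in each pair of nuclear positions (0.199, 0.182 and 0.132). With no replicate block 1 nuclear gene was higher and 0 lower, and 0 nuclear positions were lower. A replicate block in the strand test of nuclear genes gave 1 higher and 2 lower. The block moved no other count by over 1.5 times.

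DESeq2 called 0 nuclear genes in either direction, 1 bin higher and 0 lower, and 0 nuclear positions lower. Unique positions at equal depth gave 0 genes in either direction, 0 for the strand ratio, and 2 bins higher and 1 lower. Without mitochondrial-like sequence 3 bins were higher, and with the weaker filter 0 nuclear positions were lower. On unique positions the log2 change of IMPG1 was −0.30 and that of ENSG00000285253 0.012. Without 1 replicate IMPG1 ranged from −0.085 (without replicate 1) to 0.53, PPAT from −0.18 (without replicate 1) to 0.57, ENSG00000285253 from −1.02 to 0.093 (without replicate 3), the bin chr9:22300001-22400000 from −0.044 (without replicate 1) to 0.93 and the bin chr15:57100001-57200000 from −1.74 to 0.10 (without replicate 3). Without 1 replicate 2 to 7 nuclear genes were higher and 0 to 7 lower, 0 to 2 lower for the strand ratio, 4 to 8 bins higher and 1 to 22 lower, and 1 to 16 nuclear positions higher and 0 to 100 lower.

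The H-strand share of the NCR was 0.574 times the untreated one, but 1.61 times without the 10 positions with the most untreated termini and 1.70 times for unique positions at equal depth. Without those 10 positions the L-strand ratio was 0.618 in the NCR, 0.350 in Q1, 0.353 in Q2 and 0.327 in Q3 and the H-strand ratio of Q4 0.564. With the outside total these L-strand ratios were 0.383 (Q1), 0.385 (Q2) and 0.357 (Q3), and the H-strand ratio of Q4 was 0.616. The L-strand ratio of Q4 was 0.358 without the 10 positions and 0.391 with the outside total. The H-strand ratios without the 10 positions, on unique positions and with the outside total were 1.85, 1.81 and 2.02 for Q1, 1.35, 1.62 and 1.48 for Q2, and 1.88, 1.75 and 2.05 for Q3. Occupied H-strand positions numbered 2.10 times the untreated ones where at least 2 termini were asked for. Outside the NCR they were 1.64 times at an equal total and 1.02 times at equal H-strand termini, and on the L strand 0.847 and 0.991 times. Among termini with no A after the cut, A at offset −1 differed by 1.42 points, and T and G at offset 1 by 5.50 and −0.54 points, and the pair ratios were 1.31 for A|T, 1.19 for G|T, 0.86 for C|C, 0.81 for C|G and 0.88 for G|C. The promoter density ratio was 0.949 with all genes and 0.783 in the narrow promoter, and the template ratio of the narrow promoter was 1.04. The causes of these changes were not tested. At the depth of these samples a 2-fold change was rarely recovered at single positions, so few calls there do not show that little changed.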
